A study of Mus musculus with 5 samples.

Results

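Atp2a3, Plcb2 and 8 further genes of calcium signalling were followed across 5 RNA sequencing libraries of mouse brain microglia. All 10 were found by symbol among the 21983 genes of the deposited count table, and all 10 were among the 12543 genes tested. Atp2a3 and Plcb2 were chosen by their log2 fold changes and DESeq2 calls in the comparison of these same libraries, where they were among the larger rises. The other 8, Atp2a2, Atp2b1, Plcb3, Plcg2, Itpr1, Itpr2, Stim1 and Orai1, are genes of the same pathway. The difference between the groups therefore chose the members, and their values below are a description that carries no test.

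The 2 libraries labelled knockout (KO-labelled below) have the genotype Cx3cr1CreERT2 Ythdf2fl/fl, in which an inducible Cre recombinase is expressed from the Cx3cr1 locus of microglia and related macrophages and both Ythdf2 alleles are floxed. The 3 control libraries have the genotype Ythdf2fl/fl, so they share the floxed alleles and lack the Cre. The labels give the tissue as brain and the cells as primary microglia. They do not give age, sex, an inducing agent, or whether libraries came from separate animals, so a p-value speaks only for the spread between libraries, which may be technical. The study asked which processes and pathways change in microglia that lack Ythdf2, a reader of N6-methyladenosine in mRNA.

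Total counts ran from 13947500 to 19577217 per library. Ythdf2 was higher, not lower, in the KO-labelled libraries, at 103 and 127 CPM (read counts scaled to library size with TMM factors). Controls 1 to 3 stood at 57.0, 69.2 and 68.8 CPM. Both KO-labelled libraries were thus above every control (log2 fold change 0.83, SE 0.207), and the cause of this rise was not tested. A count over the whole gene also takes reads from exons that Cre leaves in place, so it does not check the deletion, and every direction below rests on the labels alone. Of 15 markers of microglia and macrophages 14 had counts, with a summed level of 6352 and 15085 CPM in the KO-labelled libraries and 10594 to 14135 CPM in the controls. Trem2 was listed at 0 in every library. Markers of oligodendrocytes were also abundant, summing to 12630 and 4651 CPM in the KO-labelled libraries 1 and 2 and to 10697, 9629 and 1286 CPM in controls 1 to 3. The KO-labelled library 1 thus had the highest oligodendrocyte sum and the lowest microglial sum of the 5. In bulk libraries of this kind, a change in the number of cells of a type and a change in RNA per cell cannot be told apart.

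As background, many surface receptors of microglia act through phospholipase C, which splits a membrane lipid, PIP2, into IP3 and diacylglycerol. IP3 opens IP3 receptors in the endoplasmic reticulum, calcium leaves the store, STIM proteins sense the emptied store and open ORAI channels in the plasma membrane. SERCA pumps refill the store and plasma membrane calcium pumps push calcium out of the cell. In microglia, calcium signals of this kind accompany process movement towards ATP and responses to injury.

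The data turn on Atp2a3 and Plcb2, so the 250 bases before their annotated start sites are shown, from RefSeq on GRCm38.p6, 5′ to 3′ on each gene's own strand. Capitals mark matches on either strand to GGGCGG, the GC box, or to GGAAGT, a core bound by ETS factors. The Atp2a3 window is chr11:72960919-72961168 (plus strand) and the Plcb2 window is chr2:118728439-118728688 (minus strand).
Atp2a3: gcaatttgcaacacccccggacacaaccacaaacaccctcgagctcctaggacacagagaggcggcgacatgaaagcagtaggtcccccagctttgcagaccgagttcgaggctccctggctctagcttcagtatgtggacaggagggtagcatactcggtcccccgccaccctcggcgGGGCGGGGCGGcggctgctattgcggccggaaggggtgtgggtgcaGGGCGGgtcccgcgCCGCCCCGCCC
Plcb2: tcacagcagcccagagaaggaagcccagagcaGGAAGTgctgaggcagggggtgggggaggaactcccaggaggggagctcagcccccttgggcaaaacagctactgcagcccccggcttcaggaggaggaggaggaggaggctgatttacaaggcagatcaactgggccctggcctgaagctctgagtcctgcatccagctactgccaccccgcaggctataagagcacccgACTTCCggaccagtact

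The pair do not share these words. The Atp2a3 window held 5 GC boxes and no GGAAGT, and the Plcb2 window held 2 matches to GGAAGT and no GC box. Among 32851 RefSeq promoter windows of the same length, 32.7% held a GC box and 19.7% held GGAAGT. Of the 10 genes 8 had a window in the table, 9 windows in all, and 7 of those 8 genes held a GC box, Plcb2 being the exception. Plcb2 was also the only 1 of the 8 with GGAAGT. Neighbouring GC boxes can share a base, and each was counted. Further words were searched on both strands. The RUNX core TGTGGT stood in 14.1% of all windows and, in the set, in that of Atp2a3. The AP-1 site TGANTCA stood in 6.75% of all windows and, in the set, in that of Plcb3. The TATA box, searched as TATAAA, stood in 12.4% of all windows and in 0 of the set. The windows of the set were rich in G and C, at 59.6% to 80.8%, against a median of 52.4% over all windows, with Atp2a3 at 66.8% and Plcb2 at 62.0%. A match is a stretch of letters and not a measured binding site.

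Atp2a3 encodes SERCA3, the calcium pump of the endoplasmic reticulum best known from blood cells and some epithelia. It lies on chromosome 11 at 72961169 to 72993044 (plus strand, GRCm38, GENCODE M21, ENSMUSG00000020788.15), and its exons overlap none of another annotated gene. Its counts were 861 and 807 in the KO-labelled libraries 1 and 2, against 23, 30 and 55 in controls 1 to 3. Scaled, these are 51.2 and 43.6 CPM against 1.45, 1.90 and 4.09 CPM. Both KO-labelled libraries were far above every control and close to each other, and control 3 was the highest control. The group means were 47.4 ± 5.38 CPM (SD, n = 2) and 2.48 ± 1.41 CPM (SD, n = 3), which is 19.1-fold higher by means and a log2 fold change of 4.27 (SE 0.463). By size of log2 fold change Atp2a3 ranked 32nd from the top of the 12543 genes tested.

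Atp2a2 encodes SERCA2, the form of the pump found in nearly all cells, and it showed no such separation. It lies on chromosome 5 at 122453513 to 122502225 (minus strand, ENSMUSG00000029467.15). Its levels were 420 and 320 CPM in the KO-labelled libraries and 345, 408 and 336 CPM in the controls, so the groups overlapped. The log2 fold change was 0.03 (SE 0.238), which is smaller than its error.

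The make-up of the SERCA pair differed between groups. Per exon length, Atp2a3 made up 12.3% of the summed Atp2a3 and Atp2a2 signal in the KO-labelled library 1 (95% Wilson interval of the counts 11.6% to 13.1%) and 13.6% in the other (12.7% to 14.5%). In controls 1 to 3 the share was 0.480% (0.320% to 0.719%), 0.534% (0.374% to 0.761%) and 1.38% (1.06% to 1.79%). These intervals cover counting error only. The mean shares were 12.9% ± 0.879 (SD, n = 2) and 0.799% ± 0.506 (SD, n = 3). The summed level of both pumps was 69.8 ± 12.6 CPM per kilobase of exon (SD, n = 2) against 60.1 ± 6.29 (SD, n = 3). This difference was within the spread of the KO-labelled libraries but larger than the SD of the controls. Atp2a2 stayed the more abundant transcript of the pair in every library.

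**Figure D1:**
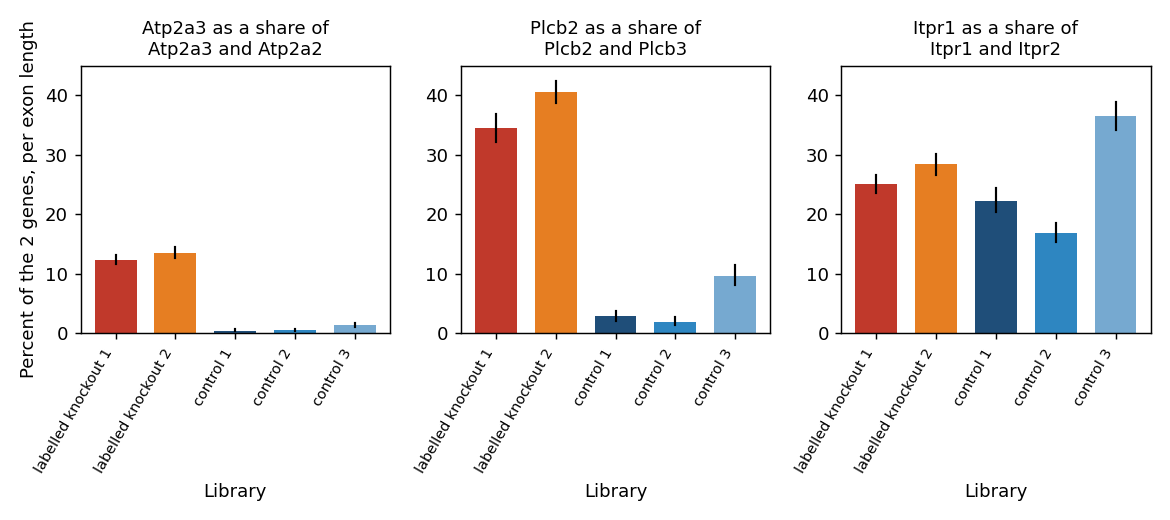
Share of the first gene in each of 3 gene pairs (percent of the summed level per exon length, vertical axis) in each library (horizontal axis), with 95% Wilson intervals of the counts as vertical lines. The Atp2a3 share is 12.3% and 13.6% in the KO-labelled libraries and at most 1.38% in the controls, whereas the Itpr1 share overlaps between groups.

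Atp2b1 encodes PMCA1, the widely expressed plasma membrane calcium pump. It lies on chromosome 10 at 98914406 to 99026143 (plus strand, ENSMUSG00000019943.10). It stood at 258 and 366 CPM in the KO-labelled libraries against 300, 374 and 382 CPM in the controls. The groups overlapped, the KO-labelled library 1 being the lowest of the 5, and the log2 fold change was -0.17 (SE 0.259).

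Plcb2 encodes a phospholipase C of the beta class, found mainly in blood cells, that G proteins activate downstream of chemoattractant and other receptors. It lies on chromosome 2 at 118707517 to 118728438 (minus strand, ENSMUSG00000040061.17), with no exon shared with another annotated gene. Its counts were 526 and 1099 in the KO-labelled libraries and 45, 30 and 115 in controls 1 to 3. These are 31.3 and 59.4 CPM against 2.83, 1.90 and 8.55 CPM. Again both KO-labelled libraries were above every control and control 3 was the highest control, but the KO-labelled libraries differed from each other by 1.90-fold, the second being higher. The means were 45.3 ± 19.9 CPM (SD, n = 2) and 4.43 ± 3.60 CPM (SD, n = 3), 10.2-fold higher by means, with a log2 fold change of 3.37 (SE 0.673). The log2 fold change was the 69th highest of all genes tested.

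Plcb3 encodes the more widely expressed enzyme of the same class and its difference was small and negative. It lies on chromosome 19 at 6952325 to 6976470 (minus strand, ENSMUSG00000024960.9). It stood at 62.8 and 91.6 CPM against 102, 99.2 and 84.7 CPM, so that only the KO-labelled library 1 was below all controls, and the log2 fold change was -0.30 (SE 0.242). Per exon length Plcb2 made up 34.5% (95% Wilson interval 32.1% to 36.9%) and 40.6% (38.8% to 42.5%) of the Plcb2 and Plcb3 signal in the KO-labelled libraries. In controls 1 to 3 it made up 2.84% (2.13% to 3.77%), 1.98% (1.39% to 2.82%) and 9.63% (8.08% to 11.4%). The summed level of the pair was 17.96 ± 5.94 CPM per kilobase (SD, n = 2) against 14.4 ± 0.839 (SD, n = 3). This difference was within the spread of the KO-labelled libraries but larger than the SD of the controls. The KO-labelled libraries 1 and 2 stood at 13.8 and 22.2, and controls 1 to 3 at 15.1, 14.5 and 13.5.

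Plcg2 encodes the phospholipase C that immune receptors with ITAM adaptors use, and it was the second most abundant gene of the set per exon length. It lies on chromosome 8 at 117498291 to 117635142 (plus strand, ENSMUSG00000034330.10). It stood at 329 and 243 CPM in the KO-labelled libraries and 202, 259 and 217 CPM in the controls. The KO-labelled library 1 was the highest of all and the other fell among the controls, with a log2 fold change of 0.34 (SE 0.242).

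**Figure D2:**
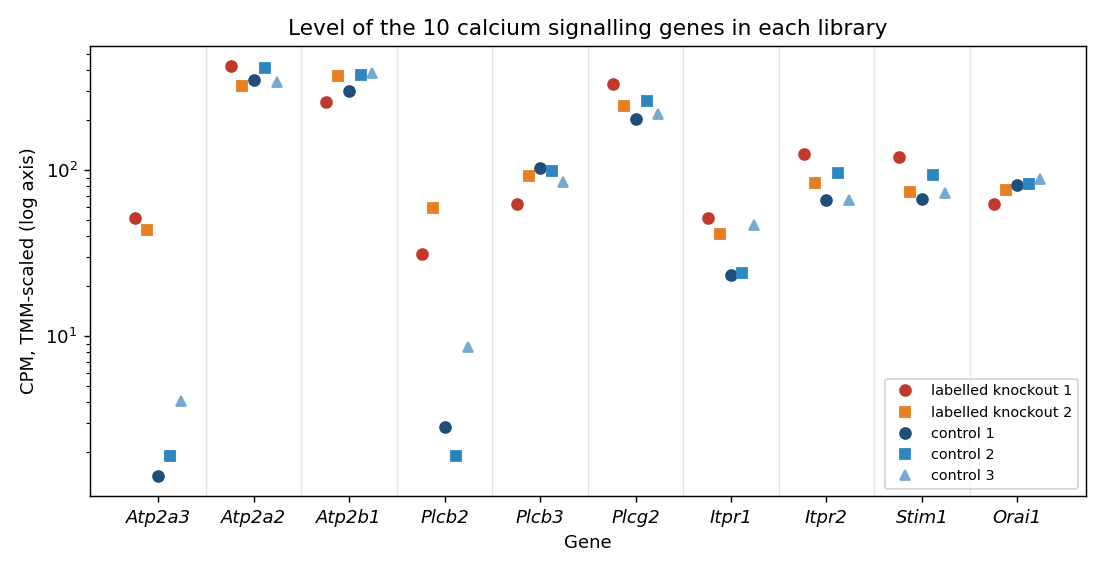
CPM of the 10 genes (vertical log axis) in each of the 5 libraries (points, by gene along the horizontal axis). Atp2a3 and Plcb2 show both KO-labelled libraries above every control, Orai1 both just below, and in the other 7 genes the groups overlap.

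The release channels overlapped between groups. Itpr1, an IP3 receptor gene on chromosome 6 at 108213096 to 108551109 (plus strand, ENSMUSG00000030102.11), stood at 51.7 and 41.2 CPM against 23.3, 24.1 and 46.8 CPM. Control 3 lay between the KO-labelled libraries, apart from the other controls, and the log2 fold change was 0.57 (SE 0.368). Itpr2, another IP3 receptor gene on the same chromosome at 146108299 to 146502223 (minus strand, ENSMUSG00000030287.15), stood at 125 and 83.8 CPM against 65.6, 95.7 and 65.9 CPM, and the log2 fold change was 0.46 (SE 0.284). The Itpr1 share of this pair per exon length was 25.1% and 28.4% in the KO-labelled libraries and 22.3%, 16.9% and 36.5% in the controls, so it overlapped too.

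Of the store-operated entry genes, Stim1 overlapped and Orai1 did not. Stim1 encodes the sensor of the emptied store and lies on chromosome 7 at 102267806 to 102437319 (plus strand, ENSMUSG00000030987.5). Its levels were 120 and 73.7 CPM against 66.4, 92.6 and 72.8 CPM, and the log2 fold change was 0.33 (SE 0.286). Orai1 encodes the channel pore and lies on chromosome 5 at 123015074 to 123030456 (plus strand, ENSMUSG00000049686.14). It stood at 62.7 and 75.7 CPM in the KO-labelled libraries and at 81.5, 82.1 and 88.5 CPM in the controls, below every control in both. The difference was small, with a log2 fold change of -0.28 (SE 0.195) and means of 69.2 ± 9.17 (SD, n = 2) and 84.0 ± 3.88 CPM (SD, n = 3).

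Over the whole set, 7 log2 fold changes were positive and 3 negative, with a median of 0.33, against a median of 0.01 over all genes tested. Without Atp2a3 and Plcb2 the median of the other 8 was 0.18, with 5 positive and 3 negative. The groups did not overlap in 3 of the 10 genes, 2 higher and 1 lower, while 20.3% of all genes tested did not overlap (9.85% higher and 10.4% lower). By edgeR's quasi-likelihood test 0 of the 10 were called, where 0% of all genes were called (adjusted p under 0.05). DESeq2 called 2 of the 10, Atp2a3 and Plcb2, both higher, where it called 1.68% of all genes with an adjusted value, 1.06% higher. Since these contrasts chose the members, nothing is read from the counts.

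**Figure D3:**
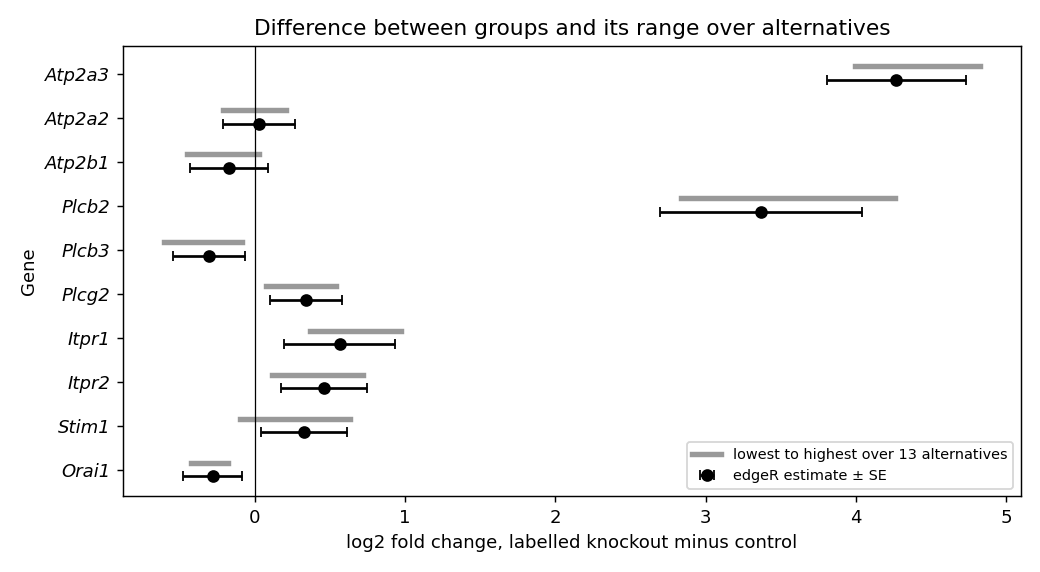
log2 fold change of each gene, labelled knockout minus control (horizontal axis), as the edgeR estimate with its standard error (black) and the range over 13 alternatives (grey). Atp2a3 stays between 3.996 and 4.82 and Plcb2 between 2.84 and 4.26, while the ranges of Atp2a2, Atp2b1 and Stim1 cross 0.

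Levels per kilobase of exon separated neighbouring genes in the upper middle of the order, and not at its top or in its lower part. Averaged over the 5 libraries, Atp2a2 stood at 60.1 CPM per kilobase and Plcg2 at 58.2, with ranges that overlapped. Orai1 followed at 34.0, Atp2b1 at 22.1 and Plcb3 at 12.7, and from Plcg2 to Plcb3 each range over the 5 libraries lay apart from the next. Stim1 (8.21), Itpr2 (5.88), Atp2a3 (3.87), Plcb2 (3.15) and Itpr1 (2.04 CPM per kilobase) came last, each with a range that overlapped its neighbour's. With the longest transcript as length in place of all exons, Atp2b1 passed Orai1 and Stim1 passed Plcb3.

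The place of Atp2a3 in this order depended on the group, at rank 10 in the controls and 7 in the KO-labelled libraries. Plcb2 was at rank 9 in both groups, at different levels. Atp2a2 ranked 1 and Plcg2 ranked 2 in the controls, and the reverse in the KO-labelled libraries. In the controls Atp2a3 was the lowest of the 10, at 0.469 ± 0.268 CPM per kilobase (SD, n = 3), and Plcb2 the next, at 0.671 ± 0.546 (SD, n = 3), and the pair did not differ beyond their spread. In the KO-labelled libraries Atp2a3 reached 8.98 ± 1.02 CPM per kilobase (SD, n = 2), close to Stim1 at 9.34 ± 3.16 (SD, n = 2), and Plcb2 reached 6.87 ± 3.01 (SD, n = 2), close to Itpr2 at 7.04 ± 1.95 (SD, n = 2). Itpr1 was the lowest there.

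Exons of Atp2a2, Plcb3 and Orai1 share 1.36%, 0.316% and 0.305% of their bases with genes annotated on the other strand, and those of Itpr1 share 0.590% and 0.988% with 2 such genes. The strand setting of the counting was not found in the sources used here. GGACT, a common form of the sequence word in which N6-methyladenosine is found, occurred 5 times in the longest coding transcript of Atp2a3 and 9 times in that of Plcb2. Per kilobase that is 1.09 and 1.75, against a median of 1.05 (quartiles 0.649 and 1.51) over 12493 tested genes with a coding transcript. The 10 genes ran from 0.223 in Atp2a2 to 1.86 in Plcg2, with a median of 0.948, and Plcb3 and Itpr2 were at 1.41 and 1.46. These counts are of letters in the reference transcripts, and methylation was not measured.

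Beyond these 10, a list of 114 other genes of calcium signalling in 14 roles gave 97 that were tested. By edgeR's quasi-likelihood test 0 were called at an adjusted p under 0.05, as for all genes (0%), and 6 had an unadjusted p under 0.05, or 6.19%, against 6.68% of all genes. DESeq2 called 2 of them, Atp2b3 (higher) and Cacna1a (lower), of 104 with an adjusted value, against 1.68% of all genes. The median log2 fold change of the 97 was 0.10, with 56 positive and 41 negative. Groups did not overlap in 9 higher and 8 lower genes, 17.5% of the list, against 20.3% of all genes.

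The plasma membrane pumps held the widest differences. Atp2b3, which encodes a form of this pump known from neurons, stood at 13.2 and 3.40 CPM in the KO-labelled libraries against 0, 0.127 and 0.669 CPM, with an edgeR log2 fold change of 5.02, SE 1.06 and adjusted p = 0.335 (DESeq2 adjusted p = 0.00209). DESeq2 no longer called it without the KO-labelled library 1 (adjusted p = 0.708). Atp2b2, another such pump, named here after its values were seen, stood at 4.82 and 1.51 CPM against 0 to 0.507 CPM (edgeR adjusted p = 0.432). Atp2b4 and the skeletal muscle pump Atp2a1 were at most 2.08 CPM in any library, and their groups overlapped. Atp2c1, the calcium and manganese pump of the Golgi, stood at 135 and 109 CPM against 139 to 181 CPM, below every control in both (an edgeR log2 fold change of -0.34, adjusted p = 0.889). Like Atp2a3 and Plcb2, Atp2b3 and Atp2b2 had low levels in every control.

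Cacna1a, the pore gene of a voltage-gated calcium channel of nerve terminals, was lower in both KO-labelled libraries, at 46.7 and 40.8 CPM against 115, 97.2 and 133 CPM. Its edgeR log2 fold change was -1.39 (SE 0.23, adjusted p = 0.262) and its DESeq2 adjusted p = 0.000979. DESeq2 did not call it without control 1 (adjusted p = 0.188) or without control 3 (0.0565). Exons of Cacna1a share 3.81% of their bases with Gm16183 on the other strand. In the same role the ATP-gated channels P2rx4 and P2rx7 are named for their mean CPM, with edgeR log2 fold changes of -0.12 (SE 0.447) and 0.29 (SE 0.293).

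Apart from the pumps, the close relatives of the 10 genes named here overlapped between groups. Itpr3, the remaining IP3 receptor gene, stood at 254 and 122 CPM against 97.4 to 158 CPM, and averaged 16.7 CPM per kilobase of exon over the 5 libraries, above Itpr1 and Itpr2. Plcg1, of the class activated by tyrosine kinases, had an edgeR log2 fold change of 0.48 (SE 0.348), and Plcb1 and Plcb4 of 0.16 and 0.18. Stim2, Orai2, Orai3 and Saraf, the other store-operated entry genes with the first being a second store sensor, lay between -0.13 and 0.09. Gnaq and Gna15, G protein subunits that activate phospholipase C beta, were at 0.03 and 0.31. The phospholipase-like genes Plcl1 and Plcl2 were at 1.38 (SE 0.98) and 0.29.

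The genes around this core also failed the edgeR test after adjustment over all genes. Syk and Tyrobp, a kinase and an ITAM adaptor upstream of Plcg2, had log2 fold changes of 0.22 and -0.33. In their role of 8 genes 6 were negative, against 6130 of all 12543 genes tested. Vav1 and Lcp2 of this role, named after their values were seen, were below every control, at -0.60 and -0.36. In the role 0 were above, and 10.4% of all genes tested were below every control. Inpp5d, a lipid phosphatase of blood cells, was above every control in both KO-labelled libraries (489 and 431 CPM against 348 to 406 CPM, a log2 fold change of 0.29, edgeR adjusted p = 0.913), and its relative Inppl1 was at -0.03. In the role of Inpp5d and Inppl1, with 9 genes tested, 3 were above every control and 1, Itpkb, was below. Itpkb, named after its values were seen, fell further than Inpp5d rose, at -0.71 (SE 0.283, edgeR adjusted p = 0.742). It measured 171 and 177 CPM in the KO-labelled libraries, while the controls ran from 221 to 370 CPM. Over all genes tested, 9.85% were above every control. Slc8a1 and Slc8b1, sodium-calcium exchangers, were at -0.22 and 0.15, and Letm1, of mitochondrial ion handling, was at 0.12. Calr, a calcium-binding chaperone of the store, was above every control (861 and 852 CPM against 620 to 705 CPM, a log2 fold change of 0.37, edgeR adjusted p = 0.877), and Canx overlapped at 0.12.

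Downstream genes gave no call either. Calm3, a calmodulin gene, had a log2 fold change of -0.02, and Ppp3ca and Ppp3r1, subunits of the phosphatase calcineurin, had 0.21 and -0.07. Rcan1, a calcineurin inhibitor gene that calcineurin signalling itself switches on, is named after its values were seen. It stood at 26.9 and 26.4 CPM against 49.4, 47.4 and 67.7 CPM, below every control in both (log2 fold change -1.04, SE 0.247, edgeR adjusted p = 0.389, DESeq2 adjusted p = 0.081). Prkcd and Dgkz, a protein kinase C and a diacylglycerol kinase gene, were at 0.10 and -0.04. Ryr1, a calcium release channel of muscle, reached 2.97 CPM in the KO-labelled library 2 and at most 0.566 CPM in the other libraries, and was too low to be tested.

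**Figure D4:**
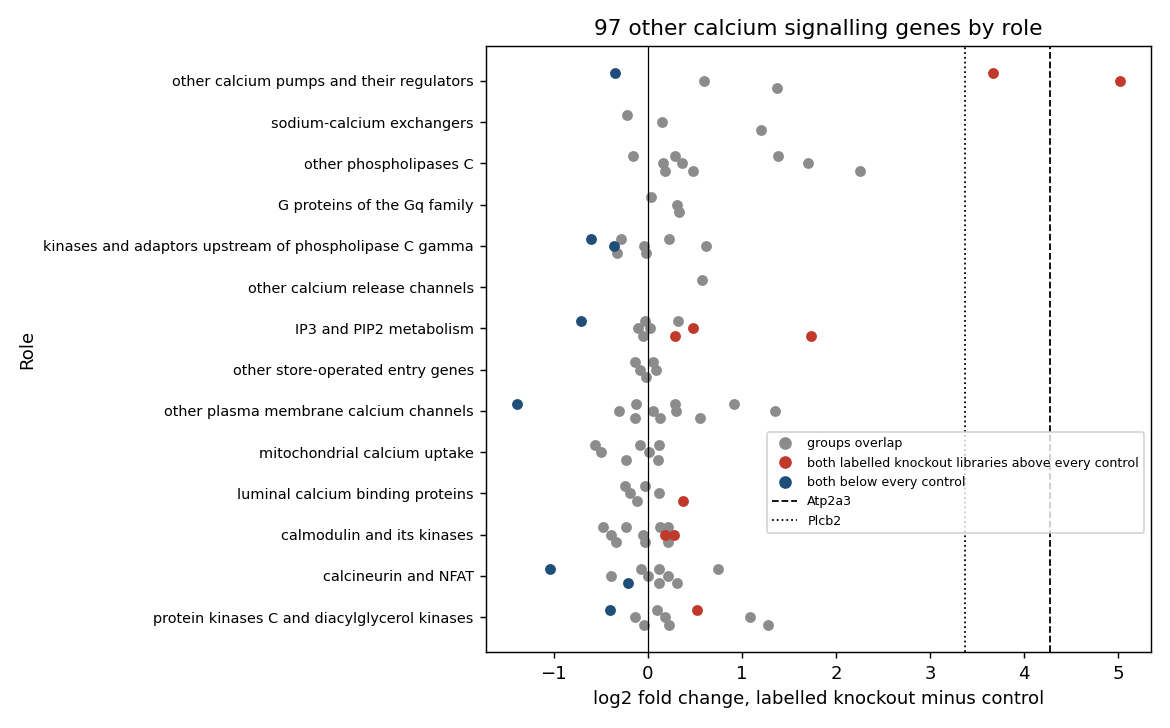
log2 fold change, labelled knockout minus control (horizontal axis), of 97 other calcium signalling genes by role (rows), with lines at the values of Atp2a3 and Plcb2. Red points had both KO-labelled libraries above every control (9 genes) and blue points both below (8 genes), and Atp2b2 and Atp2b3 are the 2 points beyond 3.

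Markers of some other cell types moved with Atp2a3 and Plcb2. All 8 choroid plexus epithelium markers were above every control in both KO-labelled libraries. The summed level was 169 and 225 CPM against 7.54 to 27.1 CPM, most of it Ttr (101 and 203 CPM in the KO-labelled libraries). Some of the 8 were near the floor, with Prlr at 0.297 and 0.054 CPM against 0 in every control. Of 10 monocyte markers 3 were above every control and 1 below (Nr4a1), where 9.85% of all genes tested were above and 10.4% below. Their sums were 136 and 212 CPM against 34.0 to 60.7 CPM. Ace stood at 38.5 and 13.1 CPM against 0.943 to 2.45 CPM, Spn at 15.2 and 8.32 CPM against 1.51 to 2.79 CPM, and F13a1 at 79.1 and 185 CPM against 23.9 to 47.0 CPM. The other 6 monocyte markers overlapped and were at most 1.89 CPM in any library, Ccr2 being the highest of them, and Treml4 was at 0 in every library. The higher levels of several of these markers in these libraries were known when the lists were written. The part of choroid plexus or monocyte RNA in the levels of Atp2a3 and Plcb2 was not tested.

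Most defining markers of other blood cells were at or near 0, with Pf4 and Cd22 as exceptions. Of 9 T and NK cell markers in the table, 7 were at 0 in every library, including Cd3d, Cd3e and Cd3g, and the sums were 0.535 and 0.270 CPM in the KO-labelled libraries. Neutrophil markers summed to 1.67 and 4.76 CPM, with S100a9 and Ly6g at 0. Platelet and megakaryocyte markers summed to 16.8 and 305 CPM against 33.4 to 145 CPM, most of it Pf4, which macrophages also express. Itga2b stood at 0 and 0.54 CPM, and Gp5 and Treml1 were at 0. The sums of B cell markers overlapped, at 33.4 and 86.3 CPM against 51.7 to 110 CPM, most of it Cd22. Of these markers Cd79a was above every control and Cd79b below, at no more than 0.270 and 2.30 CPM in any library. Mast cell and basophil markers summed to at most 0.216 CPM in the KO-labelled libraries.

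The summed levels of Purkinje cell, endothelial and astrocyte markers overlapped between groups, while single markers on these lists did not. Atp2a3 and Itpr1 are known from Purkinje cells, and of the markers of these cells Pcp4 and Calb1 were at 0 in every library and Pcp2 at no more than 0.357 CPM. Car8 was at 0 in both KO-labelled libraries and at most 0.253 CPM in the controls. The neuronal list as a whole summed to 147 and 35.6 CPM against 13.8 to 64.7 CPM, most of it Tubb3.

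Endothelial markers summed to 137 and 96.8 CPM against 51.2 to 134 CPM. Of these 8 markers 1, Vwf, which encodes von Willebrand factor, was above every control, at 55.6 and 81.8 CPM against 13.5, 18.6 and 8.25 CPM. Pecam1 was below every control, at 0.0595 and 0.108 CPM against 0.297 to 1.01 CPM, and Cldn5 and Emcn were at 0 in every library. Astrocyte markers summed to 27.8 and 30.8 CPM against 24.2 to 50.03 CPM. Of these 7 markers Aldoc was above every control (5.06 and 8.27 CPM against 0.760 to 3.20 CPM) and Gfap below (1.31 and 1.35 CPM against 2.91 to 21.2 CPM). The part of endothelial or astrocyte RNA in the levels of Atp2a3 and Plcb2 was not tested.

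The genes whose pattern over the 5 libraries was most like that of Atp2a3 included Plcb2. Likeness was the root mean square difference between log2 CPM profiles, each centred on its own mean, over 8507 genes with a mean of at least 10 CPM and no provisional symbol. Ace, which encodes an enzyme of the angiotensin system, was closest to Atp2a3 at 0.46, followed by Plcb2 at 0.64, Arg1 (an arginase gene of macrophages) at 0.84, Il7r (an interleukin 7 receptor chain) at 0.92 and Ttr (transthyretin of choroid plexus) at 0.96. For Plcb2 the closest was Ttr at 0.52, then Cd300lf, an inhibitory receptor gene of myeloid cells, at 0.63. Next came Atp2a3 at 0.64, Atp8b4, a lipid flippase gene, at 0.76 and Ahnak, a large scaffold protein gene, at 0.76. Atp2a3 and Plcb2 were both chosen for a rise in the KO-labelled libraries, so genes picked as like them share that rise by construction. With control means of 2.48 and 4.43 CPM, the pair reached a mean of 10 CPM only through the KO-labelled libraries. Of the genes listed as like them, so did Ace, Arg1, Il7r and Cd300lf. The likeness of the pair, and of these genes to it, is a description and carries no test.

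The pair differed in which KO-labelled library was higher. Atp2a3, by only 1.17-fold, and Atp8b4 were higher in the first (45.1 and 36.1 CPM for Atp8b4), as was Ace at 38.5 and 13.1 CPM. Plcb2, Ttr (101 and 203 CPM) and Cd300lf (17.5 and 54.0 CPM) were higher in the second. So were Arg1 (34.8 and 155 CPM), Il7r (41.5 and 71.8 CPM) and Ahnak (501 and 713 CPM). Most genes listed as like Atp2a3 thus went the other way from it. Control 3 was the highest control for Atp2a3, Plcb2, Ace, Arg1, Ttr, Cd300lf, Atp8b4 and Ahnak. Ahnak stood at 191 CPM there, against 87.2 and 112 CPM in controls 1 and 2. For Il7r control 3 was the lowest control, at 5.05 CPM against 5.66 and 8.55 CPM.

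**Figure D5:**
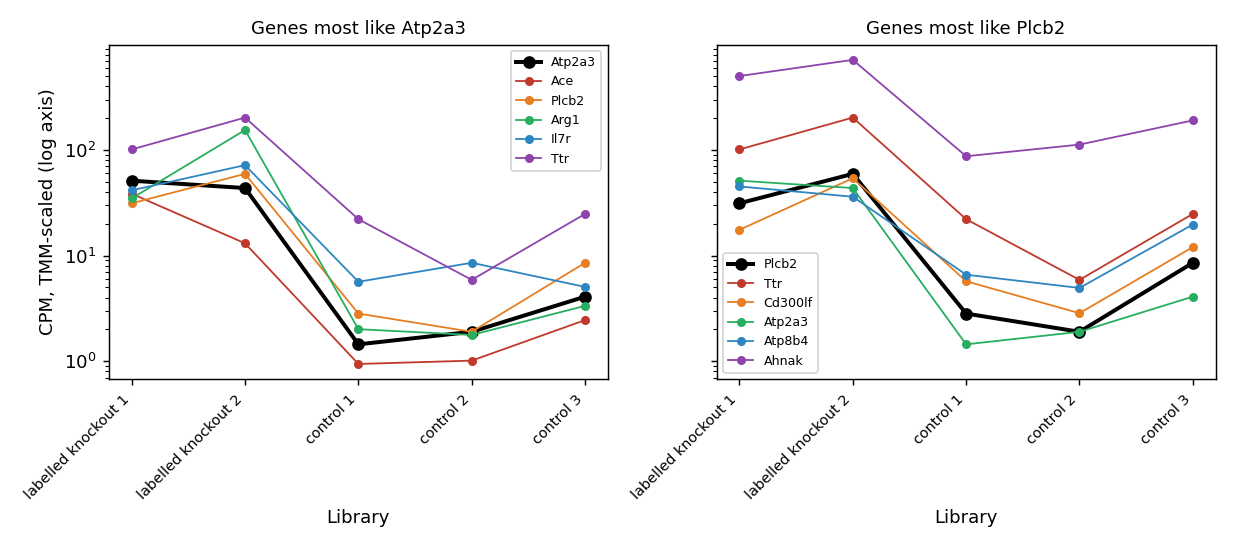
CPM (vertical log axis) in each library (horizontal axis) of Atp2a3 and Plcb2 (black) and the 5 genes most like each (colours), where lines only join the values of 1 gene. Each gene shown is higher in both KO-labelled libraries than in every control, and Atp2a3 and Plcb2 appear among each other's closest genes. Atp2a3 and Plcb2 were chosen for such a rise and the others for likeness to them, so the shared pattern carries no test.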

How the data were processed

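RNA sequencing libraries of primary microglia were analysed from 1 deposited table of whole-number read counts per gene symbol. The authors used FastQC, STAR and HTSeq with build mm10, per the submitters' processing notes. For versions, annotation and strand setting: not given in the sources used here. RNA was extracted with Trizol and libraries made with a NEBNext Ultra kit, per the labels' protocols. Groups came from the titles, as did library numbers (the third control's title carries a second number, 2).

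Counts were fitted over 12543 genes (filterByExpr, TMM, robust estimation) by edgeR 4.0.16 (R 4.3.3), with glmQLFTest, Benjamini-Hochberg adjustment over all genes and a threshold of 0.05. DESeq2 1.42.0 and limma-voom (limma 3.58.1) were alternatives, beside other scalings and filters, each library left out and a replicate block. DESeq2 with libraries left out was added after seeing the data. CPM uses TMM-scaled library sizes, with a prior count of 2 on the log2 scale. Exon lengths are unions of exons of GENCODE M21, which matched 21926 symbols (99.7%). Wilson intervals (95%) used scipy 1.17.1. Scripts were tested on simulated data. Members and lists were chosen with earlier results of these data known. The naming rule took all members, the 2 genes of highest mean CPM in each role, genes called by either tool, close family members, the 5 genes most like Atp2a3 and Plcb2, and Ythdf2. Some genes that met this rule are not reported here.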

Additional observations from a re-analysis of the deposited data

How the results depend on the processing

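The number of genes called by edgeR was 0 under each other scaling, each filter, no robust estimation and limma-voom (759 genes at an unadjusted p under 0.05, against 838 in edgeR), and 0 with each library left out. DESeq2 called 232 genes. It called 170 and 470 without KO-labelled library 1 and 2, and 87, 102 and 305 without controls 1 to 3. Of the other calcium genes DESeq2 called 2, and 1 to 4 with a library left out. With 1 KO-labelled library left, that library is assumed to vary like the controls. With the replicate block edgeR called 4 genes, Postn, Ctgf, Arg1 and Atp2a3, named after their values were seen, and 0 of the other calcium genes. Atp2a3 was chosen by its difference between these same libraries, so its call under the block carries no test. The block leaves control 3 out of the estimate, and the labels do not say that the numbers pair libraries (deviations correlated at 0.15 for number 1 and -0.56 for number 2). Of 130 alternative log2 fold changes of the 10 genes, 124 moved by less than the spread between libraries and 6 by more, all with a KO-labelled library left out. The sign changed in 6, in part other ones: Atp2a2 (4), Atp2b1 (1) and Stim1 (1), none of them under another scaling. Atp2a3 ran from 3.996 to 4.82 and Plcb2 from 2.84 (without the KO-labelled library 2) to 4.26 (without control 3). With the longest transcript as length, 4 of the 10 ranks by level changed. Depth limits Atp2a3 and Plcb2 in the controls, where counts were 23 to 115.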
